A study of Mus musculus with 6 samples.

Results

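The SLAM family receptors, their adaptor Sh2d1a and the kinase Fyn were examined in CD4 single-positive thymocytes, a late stage of thymic development that carries the co-receptor CD4 but no longer CD8, with and without the transcriptional repressor Bach2. The set held 8 genes, chosen by name and with earlier results of these data known. They were the 6 receptors Slamf1, Slamf6, Slamf7, Cd48, Cd84 and Ly9, the adaptor Sh2d1a and Fyn. All 8 were found among the 19938 genes measured under a single symbol, each with 1 probe set, so transcript isoforms of a gene were not separated. Expression was compared between 3 wildtype and 3 Bach2 knockout arrays. The wildtype cells were Ly5.1+ and the knockout cells Ly5.1-, Ly5.1 being an allele of the surface protein CD45. Every sample was male on a C57BL/6 strain background. The cells of either genotype had developed side by side in lethally irradiated male Rag1 knockout hosts, which lack T and B cells of their own. Each host had been given equal parts of lineage-depleted marrow from male donors of either genotype, with donors and hosts 8 weeks old, and the thymocytes were sorted 2 months later. The deletion was carried by the marrow, so Bach2 was missing from every blood cell lineage of knockout origin and not only from the sorted cells, and the Ly5.1 allele went together with genotype in every sample. The 6 samples came from separate mice.

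SLAM receptors are surface proteins of lymphocytes, and most of them bind the same receptor on a neighbouring cell. Tyrosine motifs in the cytoplasmic tails of many of them, though not all, recruit the small adaptor SAP, encoded by Sh2d1a, which brings in the Src family kinase Fyn. In mice, signals of this kind between cortical thymocytes are needed for the selection of innate-like T cells such as natural killer T cells, and in peripheral CD4 T cells they support help to B cells.

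Slamf6 was the member that rose in the knockout, by 1.54-fold. Sh2d1a was 1.43-fold higher on average, and its 3 knockout values lay above its 3 wildtype values, but it did not pass the test over all genes. The other 5 receptors and Fyn overlapped between the genotypes, with mean differences between -0.12 and 0.17 on the log2 scale. By limma, at a Benjamini-Hochberg adjusted p under 0.05 over the 19938 genes, 1 of 8 members was higher, against 0.351% of all genes. In the other direction 0 of 8 were lower, against 0.216% of all genes. Without adjustment, 2 members (Slamf6 and Sh2d1a) and 1377 genes in all had a p under 0.05. All 3 knockout values exceeded all 3 wildtype values for 2 members, against 5.13% of all genes, and lay below them for 0 members, against 6.57%. The median difference was -0.003 over the 8 members and -0.011 over all genes.

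**Figure D1:**
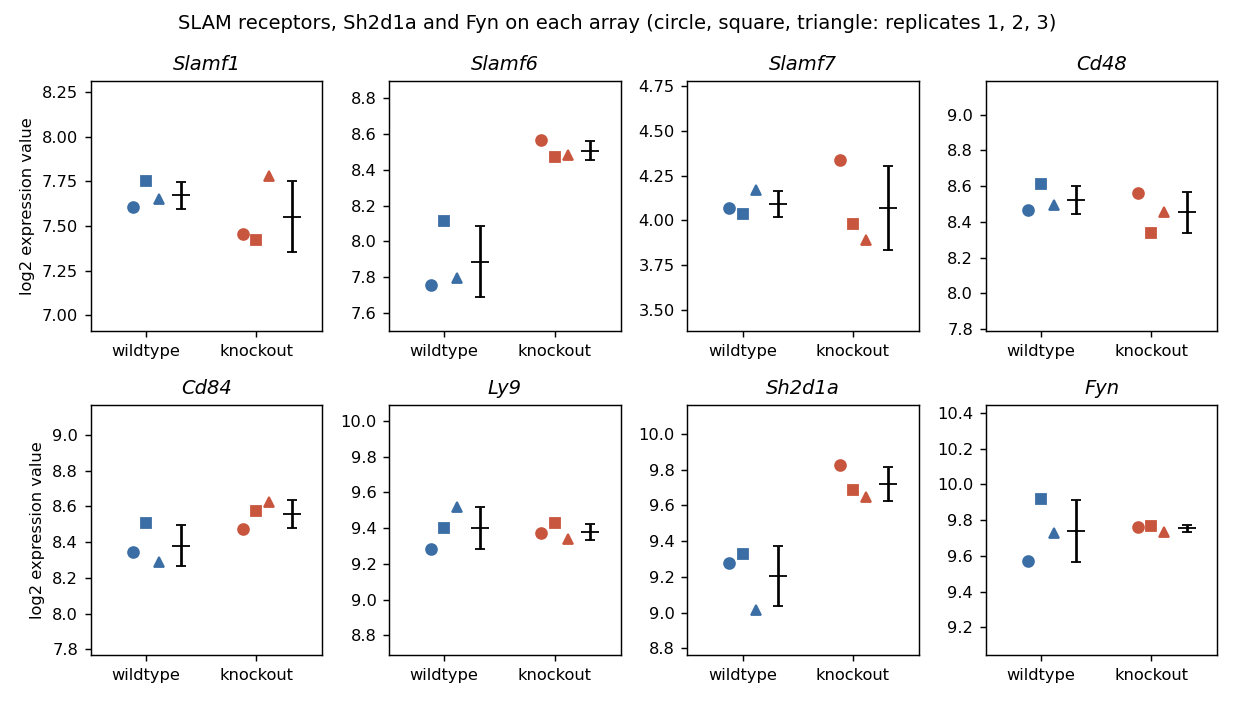
Log2 expression value (y axis, 1 panel per gene, each spanning the same range of values) of the 8 genes on the wildtype (blue) and knockout (red) arrays, with circles, squares and triangles for replicates 1, 2 and 3 and black marks for the mean and SD of 3 arrays. Slamf6 and Sh2d1a have all knockout points above all wildtype points, whereas the other 6 genes overlap.

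The genotypes and the sorted cell type were first checked on their own genes. Bach2 was at 7.89, 8.20 and 8.05 on the wildtype arrays and at 6.50, 6.42 and 6.52 on the knockout arrays, a fall by 1.57 on the log2 scale (limma adjusted p = 0.000156). Cd4 was between 10.33 and 10.43 on all 6 arrays, and the 6 markers of CD4 T cells had a mean level of 10.70 to 10.77 in wildtype and 10.71 to 10.74 in knockout arrays. Double-positive thymocytes, the stage before, bear both CD4 and CD8, so Cd4 cannot set them apart from the sorted cells. The CD8 genes Cd8a and Cd8b1 were at 7.67 to 8.90 and 8.77 to 9.55 on the 6 arrays. These levels were above the median of all values (4.94), and their source was not tested. Arrays of the same genotype correlated at 0.981 to 0.988 in wildtype and at 0.990 to 0.991 in knockout cells (Pearson's r across probe sets, which are not independent replicates). The wildtype arrays thus varied more, and the median SD was 0.141 against 0.102 over all genes and 0.114 against 0.085 over the 8 members. Arrays of different genotypes correlated at 0.984 to 0.989, which overlaps the wildtype range, so these correlations do not set the genotypes apart.

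Slamf6 encodes Ly108, a receptor that binds itself and is abundant on immature thymocytes. Wildtype replicates 1 to 3 had log2 values of 7.76, 8.11 and 7.79, and knockout replicates 1 to 3 had 8.57, 8.47 and 8.48. The knockout arrays lay within 0.094 of each other, and the highest wildtype array, replicate 2, was 0.36 below the lowest of them. The wildtype mean was 7.89 ± 0.20 and the knockout mean 8.51 ± 0.05 (SD, n = 3 each). The difference was 0.62 ± 0.11 (limma standard error), with a 95% interval of 0.37 to 0.87, or 1.29-fold to 1.83-fold (adjusted p = 0.0491). Slamf6 ranked 112 by p among all genes tested, and 113 genes passed. The call was therefore marginal: it was kept in 1 of the 6 fits with an array left out (without wildtype replicate 2, difference 0.73, adjusted p = 0.0122), and the others gave differences of 0.56 to 0.64 with adjusted p of 0.137 to 0.226. With all 35556 probe sets in the fit its adjusted p was 0.284, and without moderation of the spread 0.504.

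Sh2d1a encodes SAP, whose loss in people causes X-linked lymphoproliferative disease. Wildtype replicates 1 to 3 had log2 values of 9.28, 9.33 and 9.02, and knockout replicates 1 to 3 had 9.82, 9.68 and 9.65. The groups did not overlap, with a gap of 0.319 between the highest wildtype and the lowest knockout array. The wildtype mean was 9.21 ± 0.17 and the knockout mean 9.72 ± 0.09 (SD, n = 3 each), a difference of 0.51 ± 0.11 with a 95% interval of 0.26 to 0.76 (limma adjusted p = 0.105). With each array left out in turn, the difference ran from 0.42 to 0.57 and its adjusted p from 0.0881 to 0.345. It passed with a prior that followed expression level (adjusted p = 0.0145) and with array weights (0.0429).

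**Figure D2:**
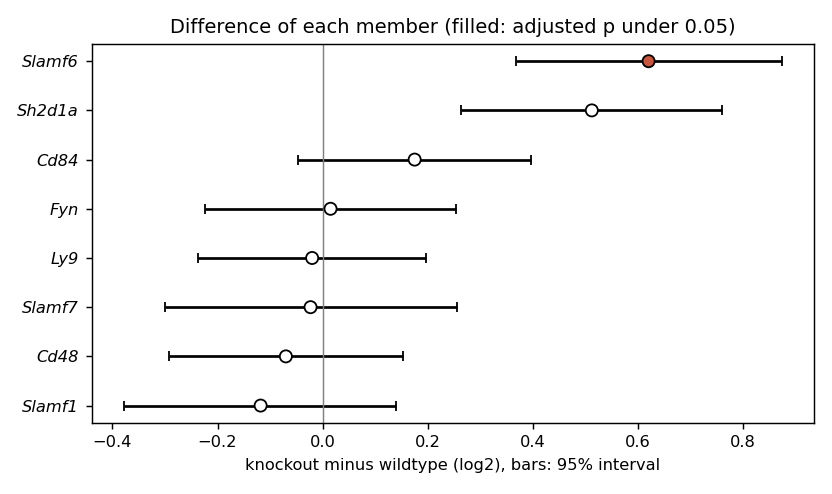
Knockout minus wildtype difference of each of the 8 genes on the log2 scale (x axis), with bars for the 95% interval of the limma fit and a filled point where the adjusted p over all genes was under 0.05. The intervals of Slamf6 and Sh2d1a lie above 0 and those of the other 6 genes include 0.

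**Figure D3:**
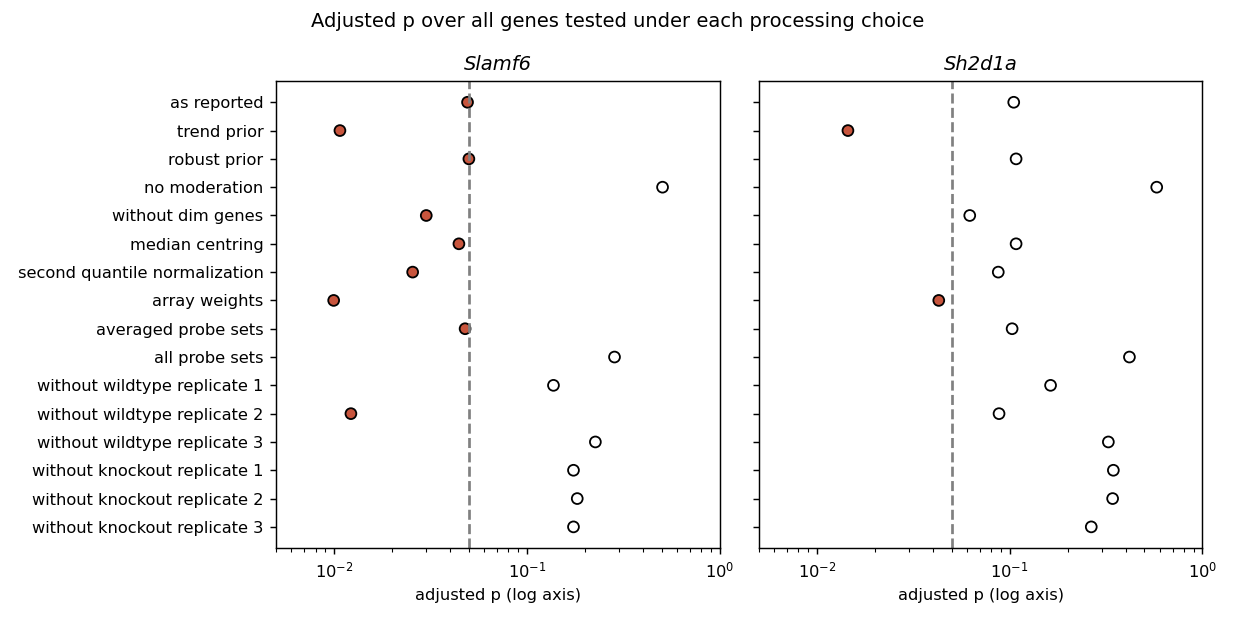
Adjusted p over all genes tested (x axis, log scale) of Slamf6 and Sh2d1a as reported and under other processing choices, each on a line of the y axis, with filled points under the dashed threshold of 0.05. Slamf6 passes in 1 of the 6 fits that leave out an array and Sh2d1a in none of them. The fit with the replicate number as a block is not drawn (limma adjusted p = 0.0669 for Slamf6 and 0.0913 for Sh2d1a).

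Fyn, the kinase that SAP recruits to the receptors, was at 9.57, 9.92 and 9.73 in wildtype and at 9.76, 9.77 and 9.73 in knockout replicates 1 to 3. All 3 knockout values fell inside the wildtype range. The difference was 0.01 (95% interval -0.22 to 0.25, limma adjusted p = 0.998), an interval that still allows a change of 0.856-fold to 1.19-fold.

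Cd84, a self-binding receptor that in mice supports lasting contact between T and B cells, was the receptor nearest to Slamf6 in its difference. It was at 8.35, 8.51 and 8.29 in wildtype and at 8.47, 8.57 and 8.62 in knockout replicates 1 to 3. Wildtype replicate 2 lay above knockout replicate 1, so the groups overlapped. The difference was 0.17 (95% interval -0.05 to 0.40, limma adjusted p = 0.864) and was positive, at 0.13 to 0.24, in every fit that left out an array.

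Slamf1, a self-binding receptor that also serves as an entry receptor for measles virus in people, was at 7.61, 7.75 and 7.65 in wildtype and at 7.45, 7.42 and 7.78 in knockout replicates 1 to 3. Knockout replicates 1 and 2 were the lowest of the 6 arrays and knockout replicate 3 was the highest. The difference was -0.12 (95% interval -0.38 to 0.14, limma adjusted p = 0.972), and -0.23 without knockout replicate 3.

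Ly9, a self-binding receptor that restrains innate-like lymphocytes in mice, was at 9.28, 9.40 and 9.52 in wildtype and at 9.37, 9.43 and 9.34 in knockout replicates 1 to 3. The knockout values again fell inside the wildtype range. The difference was -0.02 (95% interval -0.24 to 0.20), and its sign turned in the fit without wildtype replicate 3 (0.04).

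Cd48, which is tethered to the membrane by a lipid anchor and is the ligand of Cd244, was at 8.47, 8.61 and 8.49 in wildtype and at 8.56, 8.34 and 8.46 in knockout replicates 1 to 3. Its groups overlapped, with a difference of -0.07 (95% interval -0.29 to 0.15).

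Slamf7, a receptor of natural killer and plasma cells, was at 4.07, 4.03 and 4.17 in wildtype and at 3.98 and 3.89 in knockout replicates 2 and 3. It was highest on knockout replicate 1, at 4.34. It was the member whose mean lay under the median of all values in the table (4.94), a range where array signal and background are hard to separate, and its difference of -0.02 (95% interval -0.30 to 0.25) carries that limit.

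The members did not all rank the arrays alike, but many shared the highest or the lowest wildtype array. Among the wildtype arrays, replicate 2 held the highest value of 6 members (Slamf1, Slamf6, Cd48, Cd84, Sh2d1a and Fyn) and replicate 1 the lowest of 5 (Slamf1, Slamf6, Cd48, Ly9 and Fyn). Among the knockout arrays, replicate 1 was highest for 4 members and replicate 3 lowest for 4. Wildtype replicate 2 received the lowest weight of the 6 arrays, 0.399, when limma weighted arrays by their spread.

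The 6 receptor genes form an unbroken run among the tested genes, in the order Ly9, Slamf7, Cd48, Slamf1, Cd84 and Slamf6 (RefSeq gene table, GRCm38.p6). Cd244a, a further SLAM receptor outside the set, lies next to Ly9 and is counted among the flanking genes. Slamf6 closes the run on the side opposite Ly9. Its neighbours on that side, Vangl2 (-0.22), Nhlh1 (0.27) and Ncstn (0.21), did not pass the test. Of the 10 tested genes on each side of the run, 0 of 20 were higher and 0 lower by limma over all genes. Without adjustment 1 had a p under 0.05, against 1377 of all 19938 genes, and the median difference of the 20 was 0.084. All knockout values lay above all wildtype values for 5 of the 20 (Klhdc9, Ncstn, Pex19, Dcaf8 and Casq1), against 5.13% of all genes, and below them for 2 (Vangl2 and Pea15a), against 6.57%. The pair with the smallest p were Pea15a (-0.30, adjusted p = 0.365) and Vangl2 (adjusted p = 0.726). The run lies on the same chromosome as Ptprc, the gene of CD45, with 202 tested genes between them. Whether DNA carried along with the Ly5.1 allele reaches the receptor genes was not tested. Ptprc itself differed by 0.03 (adjusted p = 0.998).

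**Figure D4:**
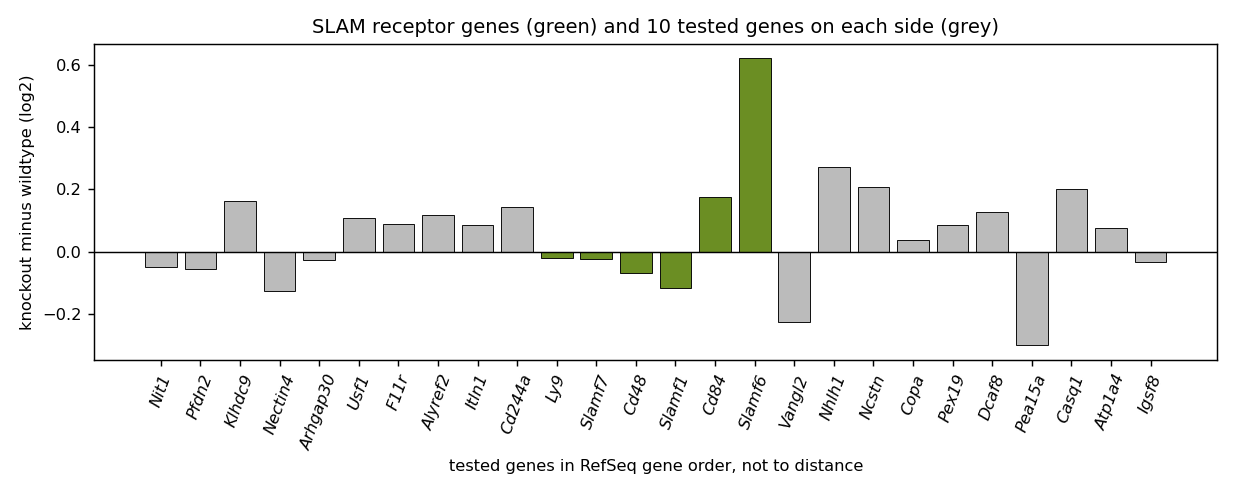
Knockout minus wildtype difference on the log2 scale (y axis) of the 6 SLAM receptor genes of the set (green) and the 10 tested genes on each side (grey), in gene order and not to distance along the chromosome. The grey gene beside Ly9, Cd244a, is a SLAM receptor outside the set. Slamf6, at 0.62, stands above its flanking genes, which run from -0.30 to 0.27.

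The promoters of Slamf6 and of the receptor gene beside it, Cd84, are shown because Slamf6 passed the test and its neighbour did not (the difference between them was not tested), and that of Slamf7 because it is the other receptor promoter with an AP-1 match. They are from RefSeq (GRCm38.p6) and cover 250 bases before to 50 bases after the gene start, Slamf6 at chr1:171917212-171917511 on the plus strand, Cd84 at chr1:171839447-171839746 on the plus strand and Slamf7 at chr1:171648950-171649249 on the minus strand. Capitals mark matches on either strand to TGANTCA, the core of the sites that AP-1 and Bach proteins bind, or to TGCTGA, the half-site of CNC and Maf proteins.
Slamf6 promoter: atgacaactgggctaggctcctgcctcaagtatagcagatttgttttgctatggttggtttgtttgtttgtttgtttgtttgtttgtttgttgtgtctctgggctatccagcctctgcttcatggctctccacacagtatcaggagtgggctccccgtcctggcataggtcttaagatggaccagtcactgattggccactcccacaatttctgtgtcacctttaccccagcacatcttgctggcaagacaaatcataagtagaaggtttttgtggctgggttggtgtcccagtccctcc
Cd84 promoter: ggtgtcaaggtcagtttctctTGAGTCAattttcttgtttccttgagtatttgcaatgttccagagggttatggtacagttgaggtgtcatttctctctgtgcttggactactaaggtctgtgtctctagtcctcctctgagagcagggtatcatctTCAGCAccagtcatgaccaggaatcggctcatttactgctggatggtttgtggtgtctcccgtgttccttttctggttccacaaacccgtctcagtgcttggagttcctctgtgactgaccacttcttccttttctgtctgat
Slamf7 promoter: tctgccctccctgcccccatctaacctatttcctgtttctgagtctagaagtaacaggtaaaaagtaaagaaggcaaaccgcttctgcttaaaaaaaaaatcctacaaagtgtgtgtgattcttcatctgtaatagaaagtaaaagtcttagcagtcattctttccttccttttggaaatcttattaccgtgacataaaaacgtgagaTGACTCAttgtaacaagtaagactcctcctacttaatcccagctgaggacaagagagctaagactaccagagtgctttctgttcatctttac
The Slamf6 window held 0 matches to either motif. Cd84 had TGAGTCA at -229 and the reverse complement of TGCTGA at -93, in bases from the gene start, and Slamf7 had TGACTCA at -42. Of the 6 members with a promoter in the table (Slamf1, Slamf6, Slamf7, Cd48, Cd84 and Fyn), 2 held TGANTCA and 3 held TGCTGA (Slamf1, Cd48 and Cd84). Over 32851 mouse promoters of the same length, 7.81% held TGANTCA and 19.5% held TGCTGA. The longer Bach2 site, in which TGCTGA runs into TGANTCA with 3 shared letters, was in 0 of the 6 and in 0.423% of all promoters. These are matches of letters in short windows, and the table says nothing of binding there or elsewhere.

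The remaining SLAM receptors and SAP-like adaptors were dim, with a mean level of 3.37 to 3.71 in wildtype and 3.54 to 3.69 in knockout arrays, under the median of all values (4.94). Of Cd244a, Slamf8, Slamf9, Sh2d1b1 and Sh2d1b2, 0 of 5 passed in either direction by limma and 0 had an unadjusted p under 0.05. The 2 smallest p belonged to Cd244a, the receptor of Cd48, which differed by 0.14 (adjusted p = 0.906), and to Slamf9, which differed by 0.09 (adjusted p = 0.984).

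Of 11 measured effectors of SLAM and SAP signalling, 0 passed in either direction by limma, with 0 at an unadjusted p under 0.05 and a median difference of 0.023. The 2 with the smallest p were Dok1, an adaptor that binds the Ras inhibitor RasGAP, at a difference of 0.22 (adjusted p = 0.916), and Ptpn6, the phosphatase SHP-1 that SLAM receptors recruit in the absence of SAP, at 0.14 (adjusted p = 0.928). Prkcq, a protein kinase C activated through SAP and Fyn in mouse T cells, had knockout values below all wildtype values by a small margin (10.28 ± 0.05 against 10.20 ± 0.04, SD, n = 3 each, adjusted p = 0.979). Among 7 Src family kinases and regulators 0 passed, with 1 at an unadjusted p under 0.05 (1377 of 19938 over all genes) and a median of 0.027. Src differed by -0.27 (adjusted p = 0.662), and Pag1, which anchors the Src inhibitor Csk at the membrane, by 0.18 (adjusted p = 0.906).

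The genes of the cells that depend on SLAM signals in mice did not pass either. Of 13 measured innate-like T cell genes, 0 were higher and 0 lower by limma. Without adjustment 6 had a p under 0.05, against 1377 of all 19938 genes. The median difference was 0.023, with 7 of the 13 genes positive and 6 negative. The genotypes did not overlap for 8 of them, 4 higher (5.13% of all genes) and 4 lower (6.57%) in the knockout. Zbtb16, the transcription factor PLZF that defines natural killer T cells, was at 5.92, 5.61 and 5.70 in wildtype and at 5.66, 6.06 and 5.58 in knockout replicates 1 to 3, which overlap. The smallest p belonged to Eomes, a T-box factor of cytotoxic and memory cells (-0.70, adjusted p = 0.106), and to Il2rb, a chain of the receptors for interleukins 2 and 15 (-0.76, adjusted p = 0.181). Of 9 follicular helper genes 0 passed by limma, 2 had an unadjusted p under 0.05 (1377 of 19938 over all genes) and the median was -0.191. They were Cd200, a surface glycoprotein (-0.47, adjusted p = 0.294), and the inhibitory receptor Pdcd1 (-0.35, adjusted p = 0.357). Without wildtype replicate 1, 2 of the innate-like and 1 of the follicular helper genes passed as lower.

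Markers of regulatory T cells and of double-positive thymocytes, which the sort could hold, were set beside Slamf6 and Sh2d1a. A lower level in a bulk sample can come from fewer cells of a type or from less RNA per cell, and these cannot be told apart here. Of 6 regulatory T cell markers, 4 were lower in the knockout by limma (Foxp3, Il2ra, Ikzf2 and Lrrc32), against 0.216% of all genes. For 5 of them all knockout values lay below all wildtype values, against 6.57% of all genes. Foxp3 differed by -2.43 (limma adjusted p = 0.00148). The number lower was 0 without moderation and 0 with all probe sets. It was 1 when wildtype replicate 3 was left out, 2 when knockout replicate 2 was, and 3 when wildtype replicate 2, knockout replicate 1 or knockout replicate 3 was. It was 5 with a prior that followed expression level, without dim genes, and with arrays centred, quantile normalized again or weighted. It was also 5 with the replicate block and without wildtype replicate 1, and 4 in the other settings. In wildtype replicates 1 to 3 their mean level was 7.56, 8.39 and 8.43, and in knockout replicates 1 to 3 it was 6.68, 6.53 and 6.66. Wildtype replicate 1 was the wildtype array nearest to the knockout arrays in these markers, and its Slamf6 value was the lowest of the 6 arrays. Sh2d1a was lowest on wildtype replicate 3, where these markers were highest. The part of regulatory T cells in the Slamf6 and Sh2d1a differences was not tested, and the values of single arrays cannot show it.

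Of 7 markers of double-positive thymocytes, the CD4 and CD8 bearing stage that precedes the sorted cells, 0 passed by limma. Without adjustment 3 had a p under 0.05, against 1377 of all 19938 genes, and the median difference of the list was 0.464. The smallest p were those of Arpp21 (0.95, adjusted p = 0.305) and of the recombinase gene Rag1 (1.27, adjusted p = 0.591). The mean level of the list was 6.30, 6.64 and 6.72 for wildtype replicates 1 to 3, and 6.52, 7.11 and 7.79 for knockout replicates 1 to 3. The list mean of knockout replicate 1 was inside the wildtype range, although its Arpp21 (5.64) was above and its Cd8b1 (8.77) below the wildtype values of those genes, and its Slamf6 and Sh2d1a values were the highest of the 6 arrays. Knockout replicate 3 had the highest list mean. Without it the difference was 0.63 for Slamf6 (limma adjusted p = 0.174) and 0.55 for Sh2d1a (limma adjusted p = 0.265), against 0.62 and 0.51 with all arrays. Neither passed in that fit, but Sh2d1a did not pass with all arrays either (limma adjusted p = 0.105). Slamf6 passed in only 1 of the 6 fits with an array left out, the fit without wildtype replicate 2. The part of double-positive thymocytes in the Slamf6 and Sh2d1a differences was not tested, and the values of single arrays cannot show it.

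**Figure D5:**
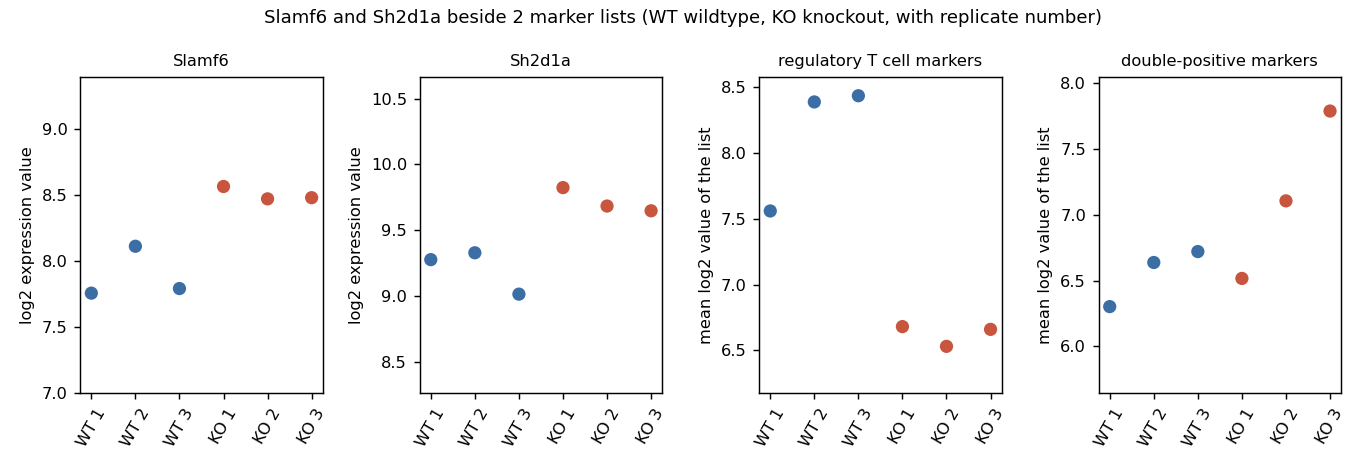
Log2 value of Slamf6 and Sh2d1a and mean log2 value of the regulatory T cell and double-positive thymocyte markers (y axes) on each array (x axis), in blue for wildtype and red for knockout cells. The double-positive marker mean of knockout replicate 1 (6.52) is within the wildtype values, and that of knockout replicate 3 (7.79) is the highest.

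Markers of cells outside the T lineage were mostly dim. Of 6 macrophage and monocyte markers, Lyz2 was higher (1.39, limma adjusted p = 0.0256), against 0.351% of all genes, and 0 were lower. Of the 6 differences 3 were positive and 3 negative, with a median of -0.014. Without adjustment 2 had a p under 0.05, Lyz2 and Itgam, against 1377 of all 19938 genes. Itgam went the other way (-0.33, limma adjusted p = 0.528), with all knockout values below all wildtype values (6.57% of all genes). The list mean was 3.96 to 4.27 in wildtype and 4.15 to 4.49 in knockout arrays. Lyz2 did not pass without wildtype replicate 2 or 3 or knockout replicate 1 or 2, nor without moderation or with all probe sets. By limma 0 passed of 4 B cell markers, 6 dendritic cell markers and 6 natural killer cell markers. Without adjustment 0, 0 and 2 of these had a p under 0.05, against 1377 of all 19938 genes. The mean levels of these lists were 4.20 to 4.63, 3.81 to 3.86 and 3.88 to 3.96 in wildtype arrays. In knockout arrays they were 4.44 to 4.59, 3.82 to 4.08 and 3.54 to 3.78. The smallest p were those of Cd79a (0.30, adjusted p = 0.856) and Cd79b (0.08, adjusted p = 0.992) for B cells, Itgax (0.31, adjusted p = 0.852) and Clec9a (0.12, adjusted p = 0.965) for dendritic cells, and Prf1 (-0.48, adjusted p = 0.168) and Gzmb (-0.61, adjusted p = 0.357) for natural killer cells. In the 6 CD4 T cell markers 0 passed and 0 had an unadjusted p under 0.05, with Cd3e at 0.04 (adjusted p = 0.996) and Cd5 at -0.05 (adjusted p = 0.992). The part of these cells in the Slamf6 and Sh2d1a values was not tested.

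The genes whose 6 array values, each centred on its own mean, lay nearest to those of Slamf6 were Cln3 (root mean square distance 0.070 on the log2 scale), Sh2b1 (0.088) and Myo18a (0.091), against a median distance of 0.361 over all genes. Cln3 encodes a lysosomal membrane protein, Sh2b1 a signalling adaptor and Myo18a a myosin. For Sh2d1a they were Dbi (0.050), an acyl-CoA binding protein, Ggt7 (0.073) and Fanci (0.074), a DNA repair protein, against a median of 0.310. Sh2d1a ranked 22 by distance from Slamf6, at 0.117, and Slamf6 ranked 41 by distance from Sh2d1a. The distances include the difference between the genotypes, which was positive for both genes. They therefore do not show whether the receptor and its adaptor vary together apart from that difference. The distances are a description over 6 arrays.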

How the data were processed

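Gene expression was measured on 6 arrays of sorted thymocytes. The table deposited by the authors holds log2 expression values per probe set, made with RMA and Partek per the submitters' processing notes. RMA (robust multi-array average) corrects background, summarises probes and gives every array the same distribution, which hides any shift common to all genes. That the values are log2 and uncentred was judged from their range, 1.10 to 13.2, and from the column medians, which were 4.93, 4.94 and 4.97 (wildtype replicates 1 to 3) and 4.95, 4.93 and 4.94 (knockout replicates 1 to 3). Software versions and the genome build: not given in the sources used here. Arrays give no read depth, and their number limits the precision.

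Of 35556 probe sets, 21789 carried 1 symbol in the platform annotation, which can be old, 1621 several and 12146 none. Of the first, 21698 matched a RefSeq gene (GRCm38.p6) by gene number. Each gene was taken at its probe set with the highest mean. Differences were fitted with limma 3.58.1 in R 4.3.3 (lmFit, eBayes, two-sided), tested first on simulated data, and adjusted by Benjamini-Hochberg over all genes. Figures used matplotlib 3.10.9 in Python 3.11.15. As alternatives, the spread was estimated with a trend or robust prior or left unmoderated, dim genes were filtered, arrays were centred, quantile normalized again or weighted, probe sets were averaged or all fitted, the replicate number was a block, and each array was left out. No batch is named in the labels.

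The members and lists were chosen with earlier results of these data known. All members are named, from each list the changed genes or else the 2 with the smallest p, and the 3 nearest profiles of Slamf6 and Sh2d1a. Prkcq, Zbtb16, Nhlh1, Ncstn and the other flanking genes whose genotypes did not overlap, Cd8a, Cd8b1 and Itgam were added after their values were seen. Of 50 listed pathway genes 44 were measured under a single symbol, and the others are not analysed here.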

Additional observations from a re-analysis of the deposited data

How the results depend on the processing

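With 6 arrays, the number of members that rose depended on the processing. It was 1 as reported, 2 with a prior that followed expression level and 2 with array weights (Slamf6 and Sh2d1a), and 0 without moderation, 0 with all probe sets and 0 with the replicate block (Slamf6 adjusted p = 0.0669). With each array left out it was 0 to 1. The other settings gave 1, and the number that fell was 0 in every setting run. The Slamf6 difference stayed between 0.56 and 0.73 and that of Sh2d1a between 0.42 and 0.57. The sign of the difference turned in 3 settings for Slamf7, in 2 for Fyn and in 1 for Ly9, none of them called. Slamf7 has no value without dim genes. The samples came from separate mice, and the replicate numbers were not treated as pairs. Deviations from the genotype mean correlated at 0.213, 0.113 and -0.0654 between same-numbered arrays, for replicates 1, 2 and 3. Between arrays of different numbers they correlated at -0.257 to 0.172. With 3 arrays per genotype these values cannot decide whether the numbers mark pairs.

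Over all genes, 70 were higher and 43 lower as reported, 100 and 78 with the prior that followed expression level, 14 and 8 among the same genes with all probe sets, and 1 and 0 without moderation. With each array left out there were 29 to 82 higher and 18 to 66 lower. Of 416 counts for the gene lists under alternatives, 14 moved, either by more than 1.5 times or to or from 0. A count of 0 that stayed at 0 was taken as unmoved. With the replicate block, 1 innate-like T cell gene was lower and 1 double-positive marker higher, where 0 were as reported. The cause of these changes was not tested, beyond the fewer arrays or larger number of features by construction.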
